A study of Mus musculus with 15 samples.

Results

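A set of 9 genes of adrenergic and cyclic AMP signalling was measured in the left ventricle of mice with chronic kidney disease: the receptor genes Adrb1, Adra1a and Adra1b, the G protein gene Gnas, the adenylyl cyclase genes Adcy5 and Adcy6, and the phosphodiesterase genes Pde3a, Pde4b and Pde4d. They were chosen by symbol, and all 9 were found among the 55487 genes of the deposited tables and passed the filter on low counts. All animals were males on normal chow, and tissue of the ventricular free wall was taken at 225 days of age. The 7 kidney disease animals carried the genotype that the labels give as Col4a5 Knockdown and the series text as a collagen IV knockout, and the 8 wild-type animals were littermates with no disease. The strain is not given in the sources used here, and no treatment beyond anaesthesia is named. For the anaesthetic the sample titles give isoflurane, while the protocol gives ketamine/xylazine.

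In cardiac muscle, noradrenaline and adrenaline bind beta-1 receptors (Adrb1), which activate the stimulatory G protein alpha subunit (Gnas) and through it the adenylyl cyclases that make cyclic AMP, mainly those encoded by Adcy5 and Adcy6. Cyclic AMP activates protein kinase A, which raises the rate and force of contraction, and phosphodiesterases of the PDE3 and PDE4 families break it down again. Alpha-1 receptors (Adra1a and Adra1b) signal instead through Gq and phospholipase C.

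None of the 9 genes was called higher or lower in kidney disease, while 1.28% of the 20718 genes tested were called (0.811% higher and 0.473% lower; edgeR quasi-likelihood test, Benjamini-Hochberg adjusted p at or under 0.05). Adra1b came nearest, at 41.2 ± 3.87 CPM (counts scaled by TMM library size; SD, n = 7) in kidney disease against 50.1 ± 4.88 CPM (SD, n = 8) in wild type, and its adjusted p of 0.051 lay just over the threshold. It was also the 1 gene of the 9 with an unadjusted p at or under 0.05, which 12.4% of all tested genes had (6.84% higher and 5.55% lower). DESeq2 called Adra1b lower, among 640 genes called of 17403 (262 of them lower). With limma-voom 252 of 20718 genes were called, and none of the 9. The log2 changes of the 9 ran from -0.28 to 0.052 with a median of -0.073 (median over all genes tested 0.0042). Of the 9, 7 were negative and 2 positive, beside 10120 negative and 10598 positive over all genes tested. The groups overlapped for each of the 9, and only 0.565% of all genes tested had groups that did not overlap.

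Upstream sequence is shown for Adra1b, the gene with the lowest p, and for Adrb1 and Pde4b, a receptor and a cyclic AMP-degrading enzyme with a window that holds the core of the cyclic AMP response element. The windows are the 250 bases before a RefSeq transcript start on GRCm38.p6, read 5′ to 3′ in the direction of the gene, in lower case with TGACG, or CGTCA for the same letters on the other strand, in capitals. Adra1b lies at chr11:43901238-43901487 on the minus strand, Adrb1 at chr19:56721867-56722116 on the plus strand, and Pde4b at chr4:102421305-102421554 on the plus strand.
Adra1b: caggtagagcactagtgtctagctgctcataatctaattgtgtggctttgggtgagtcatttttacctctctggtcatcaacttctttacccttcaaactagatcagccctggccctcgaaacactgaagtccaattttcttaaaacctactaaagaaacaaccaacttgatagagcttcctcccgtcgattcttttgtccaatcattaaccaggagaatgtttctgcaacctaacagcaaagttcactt
Adrb1: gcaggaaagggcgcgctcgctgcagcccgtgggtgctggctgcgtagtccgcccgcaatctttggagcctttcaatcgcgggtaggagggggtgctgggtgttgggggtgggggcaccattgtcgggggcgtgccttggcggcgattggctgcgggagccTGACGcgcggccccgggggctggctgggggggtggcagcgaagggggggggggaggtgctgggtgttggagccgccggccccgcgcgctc
Pde4b: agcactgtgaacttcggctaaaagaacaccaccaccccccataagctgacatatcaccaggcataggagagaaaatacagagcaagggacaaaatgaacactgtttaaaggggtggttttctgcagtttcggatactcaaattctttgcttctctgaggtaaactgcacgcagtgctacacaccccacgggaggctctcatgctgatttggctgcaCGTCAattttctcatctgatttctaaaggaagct

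The match began 90 bases before the start in Adrb1 and 34 bases before it in Pde4b. Windows at other transcript starts of Adra1b and Pde4b are not shown, and none of them held the match. RefSeq windows of 300 bases (250 before and 50 after a start) were given for 6 of the 9 genes, 13 windows in all, and TGACG on either strand was found in 5 of them, which belonged to Adrb1, Gnas and Pde4b. Overlapping windows of Gnas held the same site, so these were 4 distinct sites. Over all 32851 windows of that length, 20.8% held it. The full palindrome TGACGTCA, which contains TGACG, was in none of the 13 and in 1.79% of all windows. These are matches of letters, and binding was not measured.

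The 7 kidney disease libraries held 54263014 to 65519279 counts and the 8 wild-type libraries 48748379 to 57962094, so counting error was small for genes at this level (1460 to 18709 counts per library for the 9). Col4a5, the mutated gene, had at most 1111 counts in a kidney disease library (lowest 522) and at least 2442 in a wild-type library (highest 3620). All 10 markers of ventricular cardiomyocytes were present, none below a mean of 567 CPM, and none was called (sums of 71668 to 81254 CPM in diseased and 72451 to 94792 CPM in wild-type animals). Atrial markers varied in both groups (summed 62.9 to 1832 CPM and 67.9 to 1559 CPM), with Nppa lowest in kidney disease 6 and wild type 5. Of 10 macrophage markers 7 rose (410 to 579 CPM against 300 to 360 CPM), and of 8 B cell markers 5 rose. Fibroblast markers rose in 5 of 10 cases (1975 to 2434 CPM against 1982 to 2292 CPM) and mesothelial markers in 1 of 6. None of the tested adipocyte markers (median log2 change -1.34) or erythroid markers (-0.62) was called. Ttn took the most counts in 5 libraries (kidney disease 4, 5 and 7, wild type 6 and 7) and mt-Co1 in the other 10. In whole tissue, fewer cells of a type and less RNA per cell cannot be told apart.

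Per kilobase of exon, the cyclases led the order of levels. Adcy6 (chromosome 15, 98589973 to 98610076, GRCm38) had 40.4 FPKM (TMM-scaled CPM divided by exon length in kilobases) on average over the 15 libraries, from 31.8 to 47.6, a level above that of 96.1% of the genes tested. Adcy5 (chromosome 16, 35154877 to 35305738) followed at 22.9 FPKM (15.9 to 27.1), and no library of Adcy6 fell within the range of Adcy5. Pde3a (chromosome 6, 141249269 to 141507448) had 14.3 FPKM (10.3 to 15.9) and Adra1b (chromosome 11, 43774606 to 43901210) 13.6 FPKM (10.4 to 16.6). Pde3a was above Adra1b in 6 of 7 kidney disease libraries (means 13.96 and 12.2 FPKM) and in 2 of 8 wild-type libraries (14.7 and 14.8 FPKM), with overlapping ranges. Adrb1 (chromosome 19, 56722199 to 56733113) had 11.04 FPKM (8.77 to 13.4), below Adra1b in 14 of 15 libraries with overlapping ranges.

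The last 4 genes lay close together. Pde4d (chromosome 13, 108449948 to 109953461) had 5.60 FPKM (4.59 to 5.96), Gnas (chromosome 2, 174284320 to 174346744) 5.10 FPKM (4.51 to 5.73), Adra1a (chromosome 14, 66635251 to 66771168) 4.59 FPKM (2.71 to 5.89) and Pde4b (chromosome 4, 102087543 to 102607259) 3.86 FPKM (3.16 to 4.69). Each was above the next in 12, 10 and 11 of 15 libraries, with ranges that overlapped. The lengths are the union of all annotated exons, 11387 bases for Gnas with its alternative first exons and 12006 bases for Pde4d, and a level per kilobase is lower than that of a short transcript of the same gene.

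**Figure D1:**
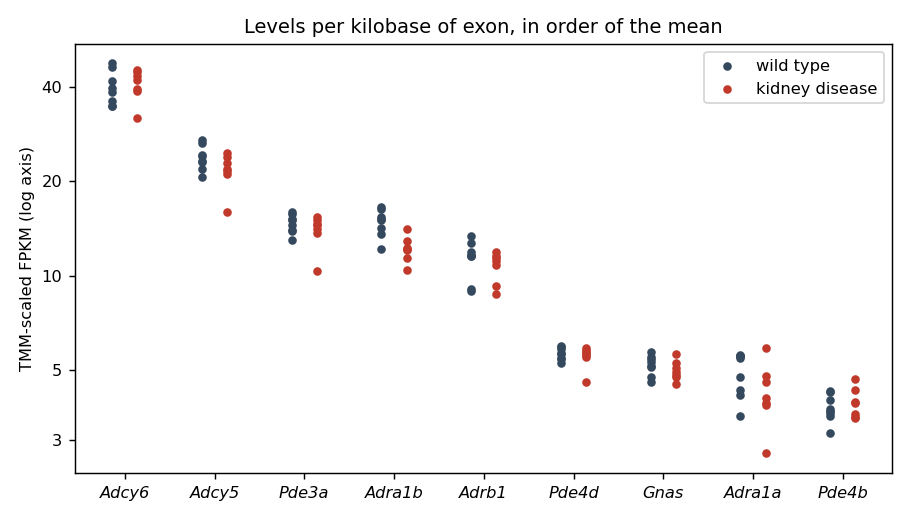
TMM-scaled FPKM (log axis) of the 9 genes in each library, ordered by the mean over 15 libraries, with wild type (8) and kidney disease (7) as separate columns of points. Adcy6 lies highest at 31.8 to 47.6 FPKM and Pde4b lowest at 3.16 to 4.69 FPKM, and the genes from Pde4d to Pde4b overlap.

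Of the receptor genes, Adrb1 encodes the main cardiac beta receptor. Its lowest, median and highest values were 29.6, 37.6 and 40.2 CPM in kidney disease and 30.3, 39.2 and 45.4 CPM in wild type. The groups overlapped, with kidney disease 7 below every wild-type animal and wild type 1 and 3 above every kidney disease animal, and 4 of 7 kidney disease animals were below the wild-type mean. The log2 change was -0.086 (SE 0.089, 95% interval -0.27 to 0.10, adjusted p = 0.78). It ran from -0.13 (without wild type 4) to -0.043 (without kidney disease 7) when 1 library was left out.

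Adra1b, an alpha-1 receptor gene, had 35.3, 41.0 and 47.7 CPM in kidney disease and 41.3, 51.3 and 56.1 CPM in wild type. All 7 kidney disease animals were below the wild-type mean and 4 were below the lowest wild-type animal, while kidney disease 5, the highest of its group, lay within the wild-type range. The log2 change was -0.28 (SE 0.070, 95% interval -0.43 to -0.14, unadjusted p = 0.00071, adjusted p = 0.051), a fold of 0.822, and 1.38% of the genes tested had a smaller p. Its side of the threshold depended on the setting: it passed in 8 of 13 other fits, among them RLE scaling (-0.29, adjusted p = 0.048) and DESeq2 (-0.29, adjusted p = 0.0097). With 1 library left out it passed in 3 of 15 fits, those lacking kidney disease 5 (adjusted p = 0.039), wild type 7 (0.015) or wild type 8 (0.049), and the adjusted p over the 15 ran up to 0.11. The direction was the same in each of these 28 fits.

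The Adra1b difference was larger in the 10 libraries led by mt-Co1, where kidney disease had 35.3 to 41.4 CPM (n = 4) and wild type 45.9 to 56.1 CPM (n = 6) without overlap, a log2 change of -0.39 (adjusted p = 0.033). In those libraries 3.66% of all tested genes did not overlap between the groups and 0.416% were called. In the 5 libraries led by Ttn, Adra1b had 38.6 to 47.7 CPM in kidney disease (n = 3) and 41.3 and 48.1 CPM in the wild-type animals. The fit of these few libraries called only 3 of 22393 genes, and its log2 change for Adra1b was -0.052 (adjusted p = 0.93). The difference between these changes was 0.34 on the log2 scale (edgeR interaction term, unadjusted p = 0.017, adjusted p = 1.00 over all genes), and this test was chosen after the values were seen. With the leading gene as a covariate the change over all 15 libraries was -0.28 (adjusted p = 0.045).

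**Figure D2:**
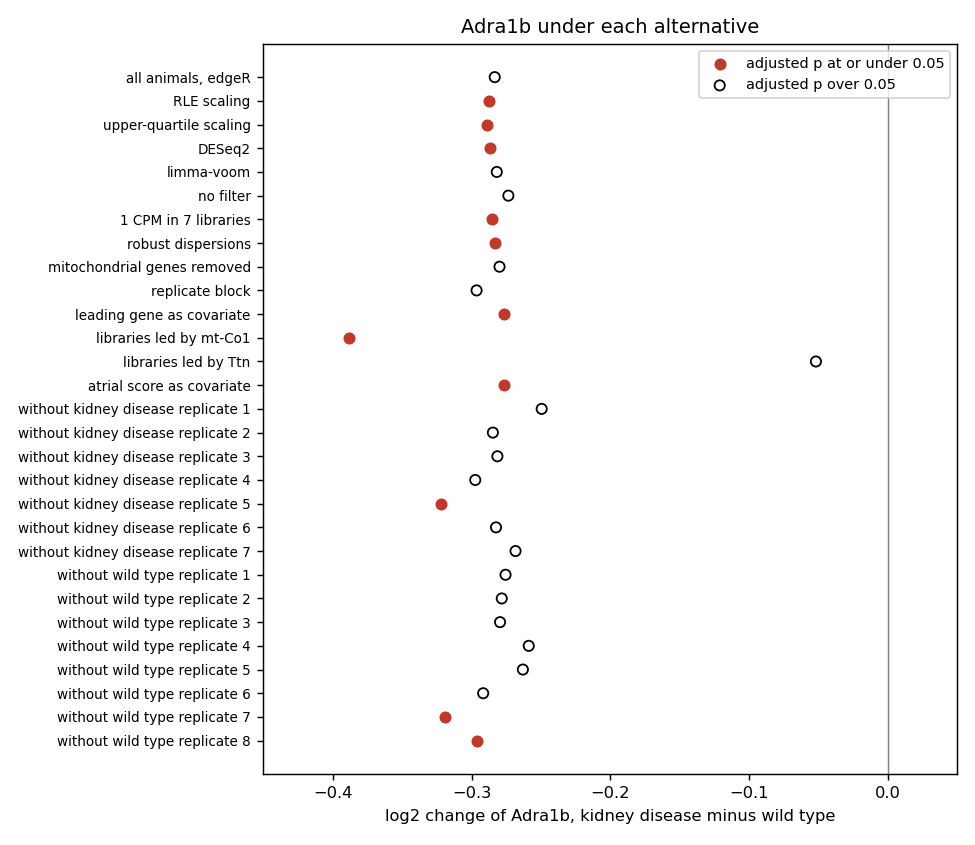
Log2 change of Adra1b (kidney disease minus wild type) under all settings run, 1 row per setting, filled where the adjusted p is at or under 0.05 and open where it is not. All points lie left of 0; the change is -0.28 with all animals, -0.39 in the libraries led by mt-Co1 and -0.052 in those led by Ttn.

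Adra1a, the other alpha-1 receptor gene of the 9, varied most from animal to animal, with a coefficient of variation of 23.0% in kidney disease and 16.003% in wild type. It had 23.7, 35.6 and 51.4 CPM in kidney disease and 31.3, 44.6 and 48.6 CPM in wild type. Kidney disease 1 was above and kidney disease 6 below every wild-type animal, and 6 of 7 kidney disease animals were below the wild-type mean. Its log2 change was -0.19 (SE 0.13, 95% interval -0.46 to 0.077, adjusted p = 0.61), -0.11 without kidney disease 6 and -0.29 without kidney disease 1, with no call in either case.

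**Figure D3:**
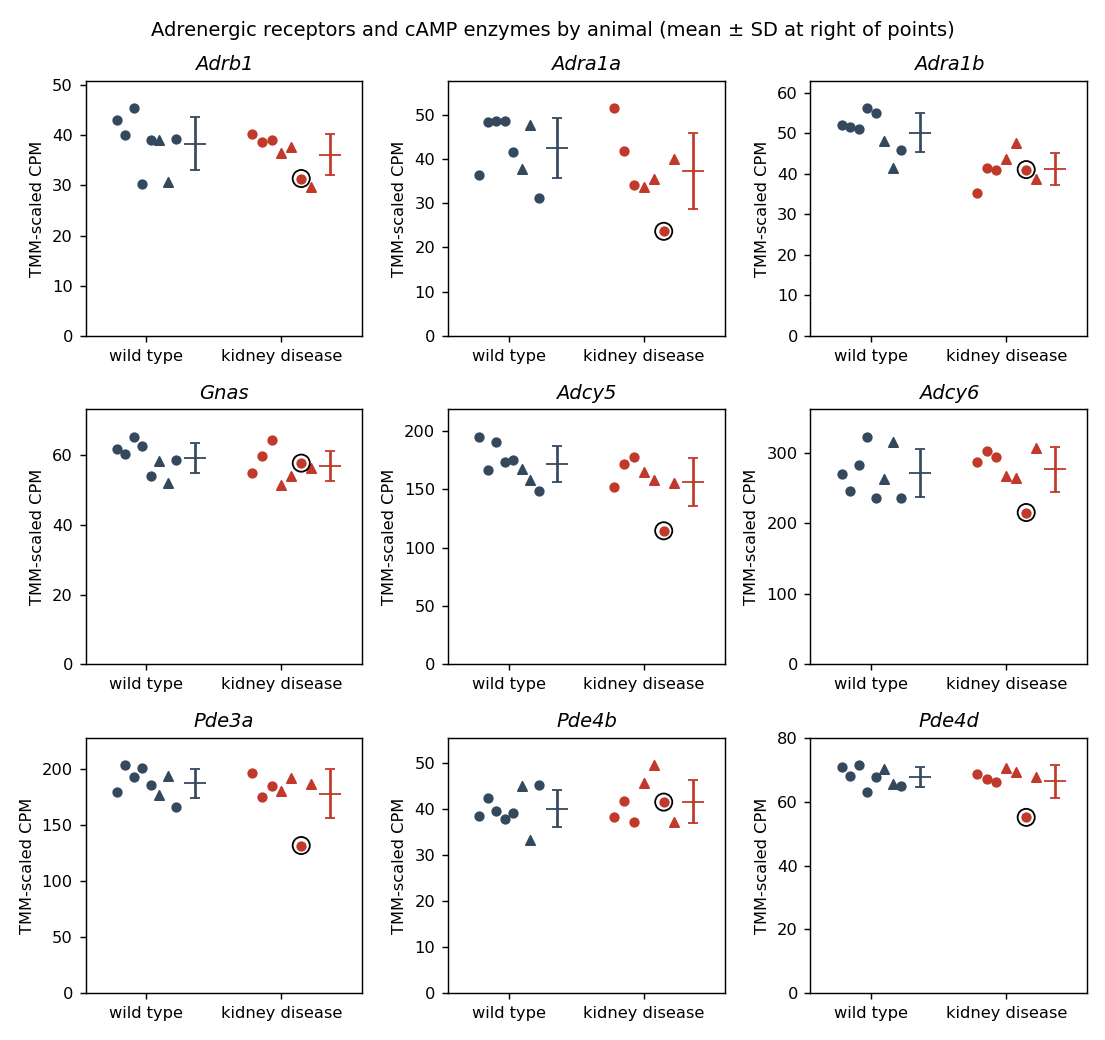
TMM-scaled CPM of each gene by animal, wild type in blue-grey and kidney disease in red, with the mean and SD of each group at the right of its points. Triangles are libraries led by Ttn, circles those led by mt-Co1, and the ringed point is kidney disease 6, the lowest of 15 for Adra1a, Adcy5, Adcy6, Pde3a and Pde4d; for Adra1b all 7 kidney disease animals lie below the wild-type mean.

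Gnas encodes the alpha subunit that couples beta receptors to adenylyl cyclase and lies in an imprinted locus with several alternative first exons. It had 51.3, 56.1 and 64.3 CPM in kidney disease and 52.1, 59.4 and 65.2 CPM in wild type, nearly the same range in both. The log2 change was -0.056 (SE 0.059, 95% interval -0.18 to 0.068, adjusted p = 0.78). Exons of Gnas share 988 bases with Nespas and 1469 bases with Gm20721 on the opposite strand, and the strand setting of the counting is not given in the sources used here. Nespas had 15 counts and Gm20721 had 11 over all 15 libraries.

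The cyclase genes Adcy5 and Adcy6 encode closely related enzymes that calcium inhibits. Adcy5 had 114, 158 and 177 CPM in kidney disease and 149, 170 and 195 CPM in wild type. A single animal, kidney disease 6, was below the wild-type range, and 5 of 7 were below the wild-type mean by more than 1 CPM, while kidney disease 2 was level with it. Its log2 change was -0.14 (SE 0.081, 95% interval -0.31 to 0.033, adjusted p = 0.54). Leaving out 1 library gave -0.17 (without kidney disease 3) to -0.074 (without kidney disease 6). Adcy6 had 215, 287 and 307 CPM in kidney disease and 236, 266 and 323 CPM in wild type, with 4 of 7 kidney disease animals above the wild-type mean. The log2 change was 0.027 (SE 0.085, 95% interval -0.15 to 0.20, adjusted p = 0.94). Leaving out 1 library gave 0.00077 (without wild type 5) to 0.080 (without kidney disease 6, the lowest of the 15 libraries). Adcy6 shares 605 exon bases with the antisense gene Gm29331, which had 0 counts.

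Among the phosphodiesterases, Pde3a encodes the enzyme that drugs such as milrinone inhibit. It had 131, 185 and 195.99 CPM in kidney disease and 166, 188.7 and 203 CPM in wild type, and kidney disease 6 alone was below the wild-type range. The log2 change was -0.073 (SE 0.074, 95% interval -0.23 to 0.083, adjusted p = 0.78). It ran from -0.098 (without kidney disease 1) to -0.012 (without kidney disease 6) when 1 library was left out. Pde3a shares 741 exon bases with the antisense gene Gm28523, at a mean of 0.718 CPM.

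Pde4b and Pde4d encode PDE4 enzymes, which are specific for cyclic AMP. Pde4b had 37.1, 41.5 and 49.5 CPM in kidney disease and 33.3, 39.4 and 45.3 CPM in wild type, and 2 kidney disease animals were above the wild-type range. Its log2 change was 0.052 (SE 0.074, 95% interval -0.10 to 0.21, adjusted p = 0.85). It ran from 0.0051 (without kidney disease 5) to 0.083 (without wild type 8) when 1 library was left out. Pde4d was the steadiest of the 9 in wild type, with a coefficient of variation of 4.42%. It had 55.1, 67.8 and 70.8 CPM in kidney disease and 63.1, 67.9 and 71.5 CPM in wild type, and kidney disease 6 was again the animal below the wild-type range. Its log2 change was -0.028 (SE 0.055, 95% interval -0.14 to 0.086, adjusted p = 0.90). Leaving out 1 library gave -0.044 (without kidney disease 4) to 0.012 (without kidney disease 6).

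**Figure D4:**
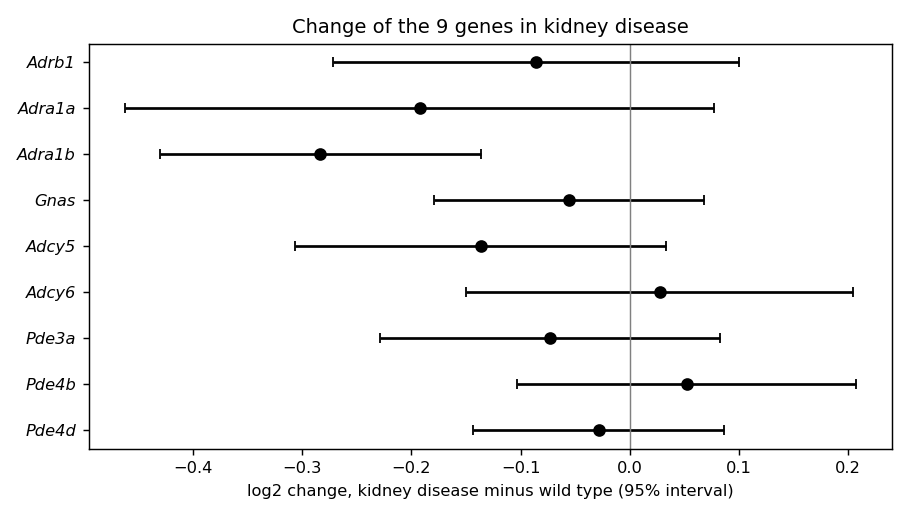
Log2 change of each gene (kidney disease minus wild type, 7 against 8 animals) with its 95% interval from the edgeR fit. The interval of Adra1b, -0.43 to -0.14, lies below 0, while those of the other 8 genes include 0; none of the 9 passed after adjustment over all genes.

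The balance between related genes was compared within each library, as a log2 ratio of counts that does not depend on scaling. Per kilobase, Adra1a stood at 0.223, 0.325 and 0.565 (lowest, median and highest) of the level of Adra1b in kidney disease and at 0.264, 0.320 and 0.448 in wild type. The group means of the log2 count ratio differed by 0.074, less than the SD within either group (0.43 and 0.26; two-sided exact permutation p = 0.69). Adcy5 stood at 0.478, 0.535 and 0.581 of Adcy6 in kidney disease and at 0.473, 0.618 and 0.698 in wild type. All 7 kidney disease animals were below the wild-type mean of that log2 ratio, by -0.17 on average (exact permutation p = 0.065, adjusted p = 0.20 over 4 ratios). Without wild type 7 the difference was -0.22 (exact permutation p = 0.012, adjusted p = 0.047). That was the only 1 of 15 tests with a library left out that passed, and the adjusted p over the 15 ran up to 0.34. In the 5 libraries led by Ttn the difference was 0.015.

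Adrb1 stood at 0.765, 0.839 and 1.14 of the level of Adra1b in kidney disease and at 0.540, 0.796 and 0.887 in wild type. All 7 kidney disease animals were above the wild-type mean of the log2 ratio, by 0.20 on average (exact permutation p = 0.099, adjusted p = 0.20). Single animals of both groups moved this difference. Without wild type 4, the lowest ratio, it was 0.13 (exact permutation p = 0.18, adjusted p = 0.36) and 4 of 7 were above the mean. Without kidney disease 1, the highest ratio, it was 0.14 (exact permutation p = 0.23, adjusted p = 0.31). Without wild type 5, 5 of 7 were above the mean. The difference was 0.31 in the libraries led by mt-Co1 and 0.039 in those led by Ttn. Pde4b stood at 0.625, 0.705 and 0.856 of Pde4d in kidney disease and at 0.577, 0.669 and 0.791 in wild type, a difference of 0.082 on the log2 scale (exact permutation p = 0.35, adjusted p = 0.46). None of the 4 ratios passed with all animals, where the smallest p the design allows is 0.00016.

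Kidney disease 6 stood apart for several of the genes. It had the lowest value of all 15 libraries for 5 of the 9 (Adra1a, Adcy5, Adcy6, Pde3a and Pde4d), and it lay within the range of the other animals for Adra1b, Adrb1, Gnas and Pde4b. The same library had the lowest atrial markers of its group, with Nppa, an atrial peptide gene, at 19.1 CPM against 130 to 443 CPM in the other kidney disease animals. Wild type 5 had less Nppa still, 12.8 CPM, and was the lowest of 15 for 0 of the 9. With the atrial score as a covariate, the log2 changes of the 5 genes were -0.22, -0.16, -0.0022, -0.099 and -0.041 in the order above. None of the 5 was called with or without this covariate. A link between atrial content and the low values of kidney disease 6 was not tested.

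After the group means were subtracted, some of the 9 varied together over the 15 libraries (Pearson's r of log2 CPM, given as a description). The highest values were 0.86 for Adra1a with Pde3a, 0.78 for Adcy5 with Pde4d and 0.70 for Adra1a with Adcy6. Without kidney disease 6 they were 0.78, 0.40 and 0.52, and Pde3a with Pde4d went from 0.68 to -0.088. Adra1a and Adra1b had an r of -0.16, and Pde4b had negative values with Adcy6 (-0.57, and -0.70 without kidney disease 6). These values share libraries and depth, and for Pde3a 32.3% of the protein-coding genes tested had an r beyond 0.5 in either direction, against 5.81% for Adra1b.

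By the same measure, the 2 other protein-coding genes most like each of the 9 were Topors (0.86) and Dcun1d4 (0.83) for Adrb1, Phf3 (0.93) and Wdr81 (0.93) for Adra1a, and Brca1 (0.87) and 1190002N15Rik (0.83) for Adra1b. They were Dtd2 (0.87) and Hnrnpab (0.84) for Gnas, Ints1 (0.95) and Tom1l2 (0.93) for Adcy5, and Phlpp1 (0.94) and Jade2 (0.92) for Adcy6. For the phosphodiesterases they were Neo1 (0.97) and Usp24 (0.93) for Pde3a, Dnajb1 (0.84) and Lrp12 (0.82) for Pde4b, and Zc3h13 (0.90) and Wipf2 (0.90) for Pde4d. These are the highest of many values over 15 libraries, and they were not recomputed without kidney disease 6. That library was the lowest for Adra1a, Adcy5, Adcy6, Pde3a and Pde4d, and its part in their values was not tested.

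Around these genes, 153 others of the pathway were listed by role, 148 were tested, 1 rose and 1 fell, with a median log2 change of -0.0012, beside 0.811% of all tested genes called higher and 0.473% called lower. Arrb2, which encodes a beta-arrestin that uncouples and internalises receptors, rose by 0.33 (SE 0.077, adjusted p = 0.040). Arrb1, the other beta-arrestin gene, was not called (0.096, SE 0.081, adjusted p = 0.71), with means of 50.3 CPM in kidney disease and 47.0 CPM in wild type. Arrb2 had 10.83, 12.05 and 14.6 CPM in kidney disease and 8.49, 9.97 and 10.82 CPM in wild type. The groups did not overlap, as in 0.565% of all genes tested, but the lowest kidney disease and highest wild-type animals almost met. When 1 library was left out it passed in 3 of 15 fits, those lacking kidney disease 4, wild type 7 or wild type 8 (0.28 to 0.36, adjusted p 0.042 to 0.083 over the 15). Macrophage markers were higher in the same animals (7 of 10 rose, summed 410 to 579 CPM against 300 to 360 CPM), and their part in Arrb2 was not tested.

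Akap5, which encodes an anchoring protein that holds protein kinase A near receptors and channels, fell by 0.63 on the log2 scale (SE 0.15, adjusted p = 0.041). It had 2.66, 4.77 and 5.59 CPM in kidney disease and 4.72, 7.42 and 7.89 CPM in wild type, with all 7 kidney disease animals below the wild-type mean and overlapping groups. It passed in 4 of 15 fits with 1 library left out, those lacking kidney disease 2, kidney disease 4, wild type 4 or wild type 7 (-0.70 to -0.54, adjusted p 0.034 to 0.088 over the 15).

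**Figure D5:**
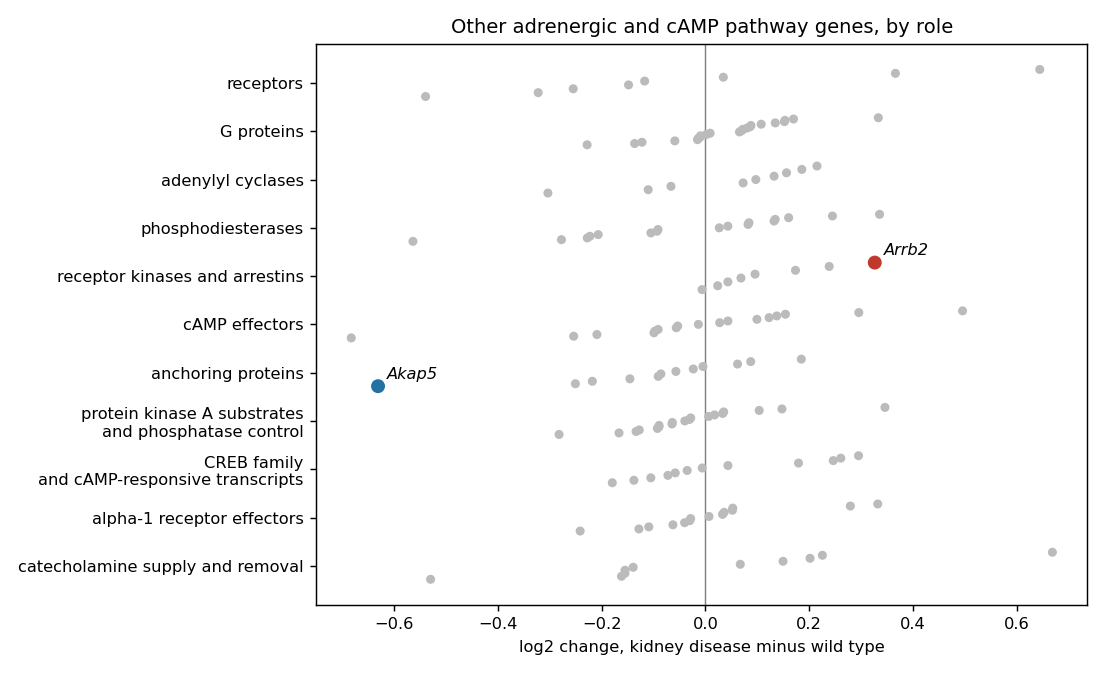
Log2 change (kidney disease minus wild type) of the 148 other pathway genes tested, 1 point per gene, by role; the red point was called higher, the blue point lower and grey points not called. The called genes are Arrb2 at 0.33 and Akap5 at -0.63.

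None of 8 other receptor genes tested passed; the histamine receptor gene Hrh2 had -0.54 (SE 0.17, adjusted p = 0.15) and the muscarinic receptor gene Chrm2, with the most counts, -0.15 (SE 0.093, adjusted p = 0.57). None of 22 G protein and regulator genes passed (median 0.068); Gnai3, an inhibitory alpha subunit gene, had 0.17 (SE 0.061, adjusted p = 0.22) and Rgs5 0.15 (SE 0.059). None of the 9 other cyclase and cyclase-associated genes tested passed, with Cap1 at 0.19 (SE 0.065) and Cap2 at -0.066 (SE 0.061). Of 17 other phosphodiesterase genes none passed; Pde4a, another PDE4 gene, had 116 ± 10.96 CPM (SD, n = 7) against 141 ± 15.5 CPM (SD, n = 8) and differed by -0.28 on the log2 scale (SE 0.077, adjusted p = 0.085), and Pde4dip, a phosphodiesterase-anchoring protein gene, -0.22 (SE 0.078, adjusted p = 0.20). Of 8 receptor kinase and arrestin genes only Arrb2 passed, and Grk2, the main kinase that desensitises beta receptors, had -0.0063 (SE 0.052, adjusted p = 0.98).

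Downstream of cyclic AMP, none of 17 effector genes passed; Pkia, which encodes an inhibitor of protein kinase A, had -0.25 (SE 0.070, adjusted p = 0.086) and Popdc2 -0.013 (SE 0.084). Of 12 anchoring protein genes Akap5 fell, and Akap6 had -0.25 (SE 0.073, adjusted p = 0.11). In this role 9 of the 12 log2 changes were negative, beside 10120 of the 20718 genes tested. Other roles leaned in either direction. Positive changes made up 7 of 8 for receptor kinases and arrestins and 14 of 22 for G proteins. Negative changes made up 12 of 19 for protein kinase A substrates and phosphatase control. Over all roles 74 were negative and 74 positive. None of 19 genes of protein kinase A substrates and phosphatase control passed (median -0.039), with Hspb6, a small heat shock protein gene, at -0.28 (SE 0.076, adjusted p = 0.078) and the calcium release channel gene Ryr2 at -0.17 (SE 0.078, adjusted p = 0.39). None of 12 CREB family and cyclic AMP-responsive genes passed, with Crem at 0.18 (SE 0.10) and Sik1 at 0.26 (SE 0.21, adjusted p = 0.69). Of 14 alpha-1 receptor effector genes none passed; the protein kinase C gene Prkca had -0.24 (SE 0.063, adjusted p = 0.065) and Itpr1 -0.030 (SE 0.098). None of 10 tested genes of catecholamine supply and removal passed (median -0.036), with Dbh, which encodes the enzyme that makes noradrenaline from dopamine, at -0.53 (SE 0.17, adjusted p = 0.14) and the monoamine oxidase gene Maob at -0.15 (SE 0.066, adjusted p = 0.33).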

How the data were processed

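RNA of 15 left ventricles (7 kidney disease, 8 wild type) was sequenced after ribosomal RNA removal with KAPA RiboErase, per the labels' protocols. Tools named in the submitters' processing notes are STAR 2.7.9a and featureCounts 2.0.3 (Subread), with bcl2fastq and the build GRCm38; counting options, strand included, are not stated there. The deposited raw counts were tested. The deposited CPM and FPKM are those counts scaled by library total and, for FPKM, exon length (recomputed to within 1e-06), and entered no test. Symbols came from GENCODE M21 (55227 of 55487 identifiers found). Genes were kept with filterByExpr (minimum count 10) and tested with edgeR 4.0.16 (TMM, quasi-likelihood, group as the only term, Benjamini-Hochberg over 20718 genes, threshold 0.05), after a check on simulated counts. CPM and FPKM in the text are TMM-scaled. Correlations used log2 CPM with a prior count of 2. Ratios were log2 of counts plus 0.5, tested by exact permutation over 6435 splits. Alternatives used DESeq2 1.42.0, limma-voom 3.58.1, other scalings and filters, covariates, subsets and left-out libraries. The 9 genes and all lists were chosen with earlier results of these data known. Other pathway genes are named if called, or as the smallest p or most counts of a role. Nppa, Arrb1 and antisense genes fall outside this rule. Some pathway genes are not reported here and are left out of the list's counts. The series text calls the libraries biological replicates.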

Additional observations from a re-analysis of the deposited data

Results flagged for a closer look

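Of 26 groups of values searched for a single animal far from the rest of its group (9 genes and 4 ratios in each of 2 groups), 4 stood out, and about 1 group in 20 would by chance; these values are not independent of each other. Kidney disease 6 was far below the rest of its group for 3 genes. It had 114 CPM of Adcy5, where the next animal had 152, 131 CPM of Pde3a, where the next had 175, and 55.1 CPM of Pde4d, where the next had 66.2. Wild type 4 had the lowest log2 ratio of Adrb1 to Adra1b counts, -0.89, where the next wild-type animal had -0.50.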

How the results depend on the processing

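No member was called higher in any of the 28 alternative fits, and the direction held in each of them for Adrb1, Adra1a, Adra1b, Gnas, Adcy5 and Pde3a. Adra1b, and so 1 member in place of 0, was called lower with RLE scaling (-0.29), upper-quartile scaling (-0.29), DESeq2 (-0.29), a filter of 1 CPM in 7 libraries (-0.29), robust dispersions (-0.28), the leading gene as covariate (-0.28), the atrial score as covariate (-0.28) and in libraries led by mt-Co1 (-0.39); with 1 library left out it ranged from -0.32 to -0.25 and 0 to 1 members were called lower. Uncalled changes turned sign for Adcy6 (-0.054 in libraries led by Ttn, -0.0022 with the atrial score), Pde4b (-0.027 in libraries led by mt-Co1) and Pde4d (0.024 in libraries led by Ttn; -0.044 to 0.012 with 1 library left out). In libraries led by Ttn the ratio of Adra1a to Adra1b differed by -0.18 and that of Adcy5 to Adcy6 by 0.015; with 1 library left out they ranged from -0.046 to 0.18 and from -0.22 to -0.14. Of the other pathway genes, those called higher numbered 2 with DESeq2 or the leading gene as covariate, 0 with the replicate block or in either set of libraries, and 0 to 1 with 1 library left out. Those called lower numbered 3 with upper-quartile scaling or the atrial score, 7 with DESeq2, 4 with the 1 CPM filter or the leading gene, 0 with the replicate block or in either set of libraries, and 0 to 5 with 1 library left out (5 without wild type 7). With 1 library left out, the calls over all genes went from 266 to between 97 (without wild type 5) and 388 (without wild type 7). The causes were not tested. The labels do not say whether same-numbered animals were paired. Group-centred correlations of same-numbered animals ran from -0.20 to 0.42, with r over 0.1 in 2 of 7 pairs, which cannot decide it. With the replicate block the change of Adra1b was -0.30 (adjusted p = 0.057) and none of the 9 was called. Arrb2 and Akap5 then had adjusted p of 0.094 and 0.12. Over all genes, 168 higher and 98 lower calls became 378 and 262 with DESeq2, 208 and 154 with the 1 CPM filter, 174 and 65 with no filter, 66 and 50 with the block, 523 in all with the leading gene (335 of them higher), 315 and 181 with the atrial score, 50 and 36 in libraries led by mt-Co1 and 1 and 2 in those led by Ttn.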
